A study of Mus musculus with 4 samples.

Results

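The Hox genes were examined in mesenchymal stem cells of mouse bone marrow, a stromal population able to form bone, cartilage and fat. They were chosen by symbol, from probe sets whose only symbol in the array annotation was Hoxa, Hoxb, Hoxc or Hoxd plus a number. Hoxa11 and Hoxd4, found only on probe sets of several symbols, were left out. Each gene was represented by its probe set of highest mean among those of 1 symbol. This gave 36 of the 22180 genes measured, 9 in the Hoxa, 10 in the Hoxb, 9 in the Hoxc and 8 in the Hoxd cluster. There were 4 arrays, 1 for each group: Snail1-WT cells untreated, Snail1-WT cells given TGF-b1 for 2 h, Snail1-KO cells untreated and Snail1-KO cells given TGF-b1 for 2 h. Snail1, product of Snai1, is a zinc finger repressor, and TGF-b1 is a cytokine that signals through SMAD proteins. The sources used here do not give strain, age, the number of animals, whether the cultures were separate, the way Snail1 was deleted or the dose of TGF-b1.

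Hox genes encode homeodomain transcription factors that give cells of the embryo their position along the body and limb axes. In mammals they lie in 4 clusters on different chromosomes, and genes of the same number in different clusters, called paralogs, descend from 1 ancestral gene. Low-numbered genes at the 3′ end of a cluster are active earlier and further forward than high-numbered ones at the 5′ end. Stromal cells of the adult keep much of the Hox pattern of the place they came from. Hox proteins bind DNA together with partner homeodomain proteins of the PBX, MEIS and PKNOX families, while Polycomb and trithorax complexes hold the clusters silent or active.

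All values are log2 values made with RMA, and a difference of 1 between 2 arrays is 2-fold. With 1 array per group no comparison has a replicate check and no test was made, so no p-value is given. A noise SD was computed for each gene, the SD of a difference between 2 arrays, from how far the responses of the 2 genotypes disagree. The 500 genes nearest in level among those kept by the filter on low values, described below, were used. The 8 members below that filter were thus set beside brighter genes, and their noise SD may be too small. The noise SD lay between 0.08 and 0.23 for the 36 Hox genes, and true differences between the responses are part of it. Any shift common to both arrays of 1 genotype, or to both treated arrays, is not part of it. A gene was counted as higher or lower when it was at least 1.5-fold apart, a difference of 0.58 or more. Where both arrays of 1 kind lay above or below both of the other, the share of all genes that did so was not counted. In whole cultures, fewer cells of a type and less RNA per cell cannot be told apart.

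Snai1, checked first, differed in the direction of the labels. It measured 5.09 on the untreated and 5.34 on the treated Snail1-KO array, below the Snail1-WT values of 6.69 and 7.63. Of 13 measured early TGF-b targets, 9 were at least 1.5-fold higher after TGF-b1 with Snail1 present and 10 without it, and Id1 was lower with Snail1 present. In the order of the Snail1-WT response the 8 highest were Ccn2 (2.84), Skil (2.62), Has2 (2.61), Pmepa1 (2.51), Smad7 (1.51), Ldlrad4 (1.43), Klf10 (1.32) and Junb (1.13). Of 11 measured mesenchymal stromal markers, 9 passed the filter on low values, all but the nucleotidase gene Nt5e and the leptin receptor gene Lepr. The summed log2 level of all 11 ran from 91.7 to 93.7 over the groups. Past 1.5-fold after TGF-b1 were 1 of these 11 markers in Snail1-WT cells, the receptor gene Pdgfrb, and 2 in Snail1-KO cells. Pdgfrb had differences of 0.63 and 0.69 and its relative Pdgfra of -0.47 and -0.60, so they went opposite ways. Vcam1 and Prrx1, with -0.44 and -0.17 and with -0.43 and -0.20, stayed within the mark. Of 6 haematopoietic markers 2 passed, with sums of 22.9 to 23.9, and the pan-leukocyte gene Ptprc was among those that failed. Of 5 endothelial, 4 epithelial and 3 smooth muscle markers, 3, 3 and 2 passed. The sums over all measured markers of each type ran from 21.2 to 21.6, 18.5 to 19.1 and 15.9 to 16.6. Such sums grow with the number of genes, so they are compared between groups only, not between types. The part of other cell types in the Hox values was not tested.

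The level of Hox genes differed by cluster. A gene passed the filter on low values when its mean over the 4 arrays was among the upper 60% of all genes, which meant 4.51 or more. All 9 Hoxa genes passed, as did 9 of 10 Hoxb genes (all but Hoxb13), 8 of 9 Hoxc genes (all but Hoxc11) and 2 of 8 Hoxd genes (Hoxd8 and Hoxd10). In all, 28 of 36 passed. Probe sets differ in affinity, so values of different genes are not amounts of RNA and are set only against the spread of all probe sets on the same array. In all 7 genes lay above the upper quartile of all probe sets, which ran from 6.38 to 6.43, on every array. The median of the kept genes, 6.63 to 6.67, also lay above this quartile on each array, so passing it does not set a gene apart. The share of all genes above it on every array was not counted.

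Of those, 5 were Hoxc genes, which pattern the trunk and hind part of the body. Hoxc6 measured 8.70 in untreated and 8.43 in treated Snail1-WT cells, and 9.07 and 8.96 in Snail1-KO cells. Hoxc8 measured 8.81 and 8.62 in Snail1-WT cells, and 8.82 and 8.80 in Snail1-KO cells. Hoxc9, Hoxc10 and Hoxc13 had means of 7.85, 8.06 and 7.52 over the arrays, whereas Hoxc11, which lies between Hoxc10 and Hoxc12, had a mean of 3.86. The pair of Hoxb genes above the quartile were Hoxb6 and Hoxb9. Hoxb9 was nearly level over the arrays, at 7.24 and 7.29 for Snail1-WT and 7.17 and 7.23 for Snail1-KO cells.

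In the Hoxa cluster the means ran from 4.55 (Hoxa2) to 6.54 (Hoxa7). Hoxa7 measured 6.47 and 6.37 without and with TGF-b1 in Snail1-WT cells, and 6.78 and 6.54 in Snail1-KO cells. Hoxd means ran from 3.78 (Hoxd9) to 5.20 (Hoxd10), and no Hoxd gene reached the upper quartile on any array. Hoxd10, a limb and trunk patterning gene, measured 5.26 and 5.37 in Snail1-WT cells and 5.10 and 5.08 in Snail1-KO cells. By paralog number, all members of groups 4 to 8 passed the filter (14 genes), against 5 of 7 in groups 1 to 3 and 9 of 15 in groups 9 to 13. Both members of group 11 failed it. Of the number 9 paralogs, Hoxa9, Hoxb9 and Hoxc9 passed and Hoxd9 did not.

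**Figure D1:**
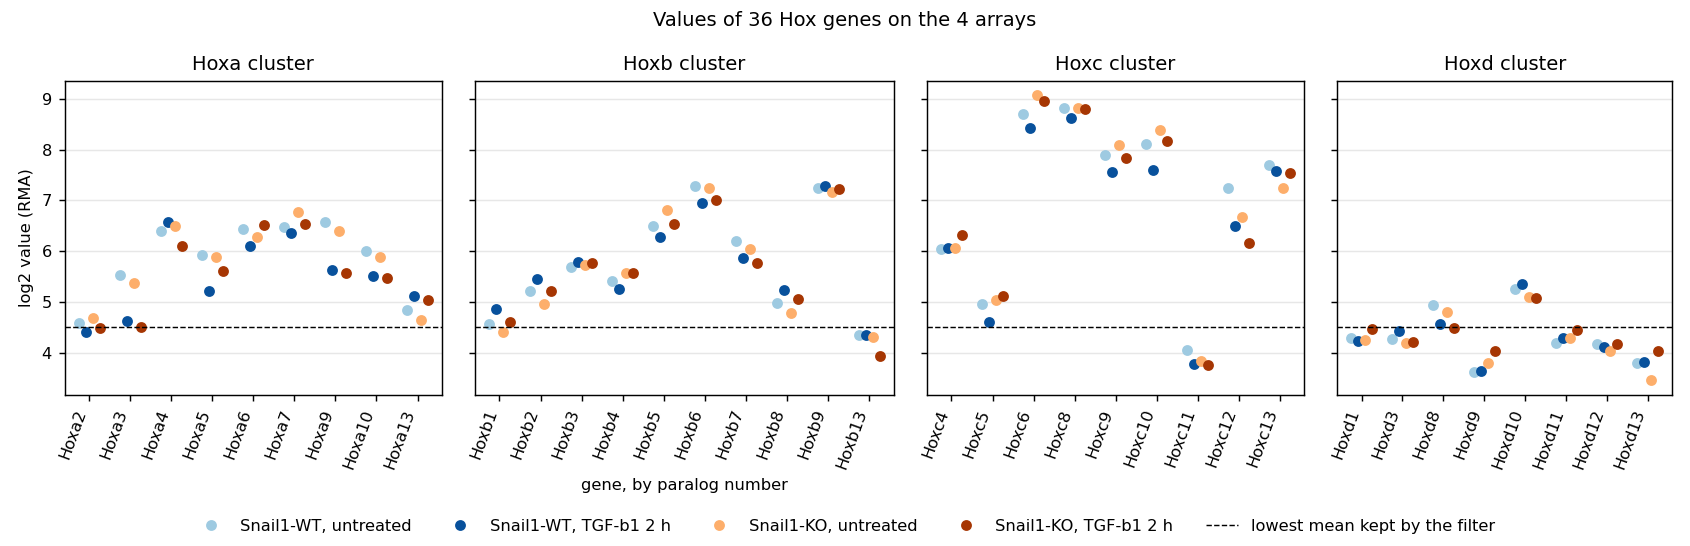
Values of each Hox gene on the 4 arrays. The vertical axis is the RMA log2 value, each point is 1 array, the panels are the clusters, genes run by paralog number, and the dashed line at 4.51 is the lowest mean kept by the filter. Hoxc6 and Hoxc8 lie highest, between 8.43 and 9.07, and most Hoxd genes lie below the line.

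How the Hox genes responded to TGF-b1 was asked first in Snail1-WT cells. After 2 h, Hoxa9, Hoxa3, Hoxc12 and Hoxa5 were at least 1.5-fold lower and no Hox gene was 1.5-fold higher. These are 4 of 36 members, where 1.89% of the 13308 genes kept by the filter were lower by that much (1.86% of all 22180 genes), and 0 of 36 where 2.48% of the kept genes (2.3% of all) were higher. The median over all 36 members was -0.13, beside -0.03 over the kept genes. No member was 2-fold apart in this or any other comparison below, where 0.714% of the kept genes were 2-fold higher and 0.271% lower in Snail1-WT cells after TGF-b1, and 0.999% and 0.308% in Snail1-KO cells. For the genotype these shares were 0.827% and 0.744% untreated and 1.07% and 0.631% treated, and for the difference of the responses 0.105% and 0.233%.

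Hoxa9, a posterior factor that also acts in blood stem cells and leukaemia, measured 6.58 in untreated and 5.64 in treated Snail1-WT cells, and 6.40 and 5.58 in Snail1-KO cells. Both treated arrays lay below both untreated ones, by 1.92-fold with Snail1 present (difference -0.94) and 1.76-fold without it (-0.82). The noise SD at its level was 0.18. Hoxa3, an anterior factor needed for thymus and parathyroid formation, measured 5.54 and 4.62 in Snail1-WT cells and 5.38 and 4.51 in Snail1-KO cells. Again the treated arrays were the low ones in both genotypes, by differences of -0.92 and -0.87, with a noise SD of 0.23. Its treated values were close to the filter limit of 4.51, which leaves the sizes uncertain. A probe set that Hoxa3 shares with another gene had differences of 0.07 and 0.24, so the direction is uncertain as well.

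Hoxc12, a posterior member of the Hoxc cluster, measured 7.25 and 6.51 in Snail1-WT cells and 6.68 and 6.16 in Snail1-KO cells. Its differences were -0.74 and -0.52, so the 1.5-fold mark was passed in Snail1-WT cells alone. The ranges of treated and untreated arrays did not overlap, a pattern whose share over all genes was not counted. Hoxa5, a factor of lung and rib development, measured 5.92 and 5.22 in Snail1-WT cells and 5.89 and 5.62 in Snail1-KO cells. Its differences were -0.70 and -0.27. Both untreated arrays were alike, and the treated Snail1-WT array was the lowest of the 4.

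The bases before the start sites of Hoxa3, Hoxa5 and Hoxa9 are shown because these members lie in 1 cluster and were at least 1.5-fold lower in Snail1-WT cells. They are the 250 bases upstream of the RefSeq start, on the minus strand of GRCm38.p6 and written 5′ to 3′, with Hoxa10 added as the fourth of the cluster by mean response. Capitals mark the SMAD-binding core CAGAC (or GTCTG) and the E-box CANNTG, the core of sites bound by Snail factors and by bHLH factors. Hoxc12 has no entry in the promoter table.
Hoxa3, chr6:52213068-52213317: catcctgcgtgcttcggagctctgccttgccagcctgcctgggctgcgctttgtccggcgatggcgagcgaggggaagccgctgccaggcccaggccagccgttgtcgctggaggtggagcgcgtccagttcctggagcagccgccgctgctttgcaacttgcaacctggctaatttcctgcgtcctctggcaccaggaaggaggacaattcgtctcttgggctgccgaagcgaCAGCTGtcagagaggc
Hoxa5, chr6:52204588-52204837: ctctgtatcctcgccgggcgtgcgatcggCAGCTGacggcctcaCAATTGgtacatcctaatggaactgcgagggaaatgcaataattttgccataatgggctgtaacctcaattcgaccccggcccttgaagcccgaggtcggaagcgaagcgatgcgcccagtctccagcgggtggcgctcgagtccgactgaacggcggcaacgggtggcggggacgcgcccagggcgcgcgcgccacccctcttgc
Hoxa9, chr6:52227371-52227620: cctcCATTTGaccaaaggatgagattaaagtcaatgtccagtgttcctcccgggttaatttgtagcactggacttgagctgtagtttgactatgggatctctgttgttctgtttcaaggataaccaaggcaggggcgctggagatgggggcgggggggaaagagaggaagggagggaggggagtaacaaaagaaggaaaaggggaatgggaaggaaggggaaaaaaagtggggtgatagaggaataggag
Hoxa10, chr6:52240855-52241104: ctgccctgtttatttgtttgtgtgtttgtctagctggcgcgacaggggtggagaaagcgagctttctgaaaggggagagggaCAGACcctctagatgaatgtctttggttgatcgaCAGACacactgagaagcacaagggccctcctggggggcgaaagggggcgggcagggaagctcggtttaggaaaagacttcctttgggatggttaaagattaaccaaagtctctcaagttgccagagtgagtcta
CAGAC occurred on either strand in 0 of these windows of Hoxa3, Hoxa5 and Hoxa9 and at 2 places in that of Hoxa10. It was present in 7 of 22 windows of the 20 members in the table and in 42.2% of all 32851 windows. CANNTG was present in 15 of the 22 and in 66.2% of all windows. CAGGTG (or CACCTG), the E-box form best known for Snail factors and a special case of CANNTG, was present in 0 of the 22 and in 17.2% of all. These are counts of letters in a short window. A second Hoxa10 start in the table had neither motif in its window.

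In Snail1-KO cells, Hoxa3 and Hoxa9 were the members at least 1.5-fold lower after TGF-b1. They are 2 of 36, where 1.83% of the kept genes were lower by that much (2.26% of all genes). None of 36 was 1.5-fold higher, where 3.31% of the kept genes (2.97% of all) were. The median over all 36 members was -0.02, beside -0.02 over all genes. Over the 28 members that passed the filter it was -0.15, beside -0.02 over the kept genes. The nearest member on the upper side was Hoxd13, a digit and genital tract patterning gene, with a difference of 0.57. It measured 3.80 and 3.82 in Snail1-WT cells and 3.46 and 4.03 in Snail1-KO cells, below the filter on every array.

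On the probe sets used, Hoxa3 and Hoxa9 were thus lower in each response, which come from separate pairs of arrays. The share of genes lower by that much in both was 0.691% of the kept and 0.487% of all genes. By any amount, 17 of 36 members were lower in both responses (38% of the kept and 32.7% of all genes), 11 were higher in both (29.5% and 28%) and 8 went opposite ways. Across the 36 members Pearson's r between the responses was 0.742 and Spearman's rho 0.656. Without Hoxa3 and Hoxa9, r was 0.609 and rho 0.591. Over the kept genes, with none left out, r was 0.633 and rho 0.470. Without Hoxa3 and Hoxa9, r was thus below and rho above the value of the kept genes. These are descriptions, since genes of 1 array share its processing.

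**Figure D2:**
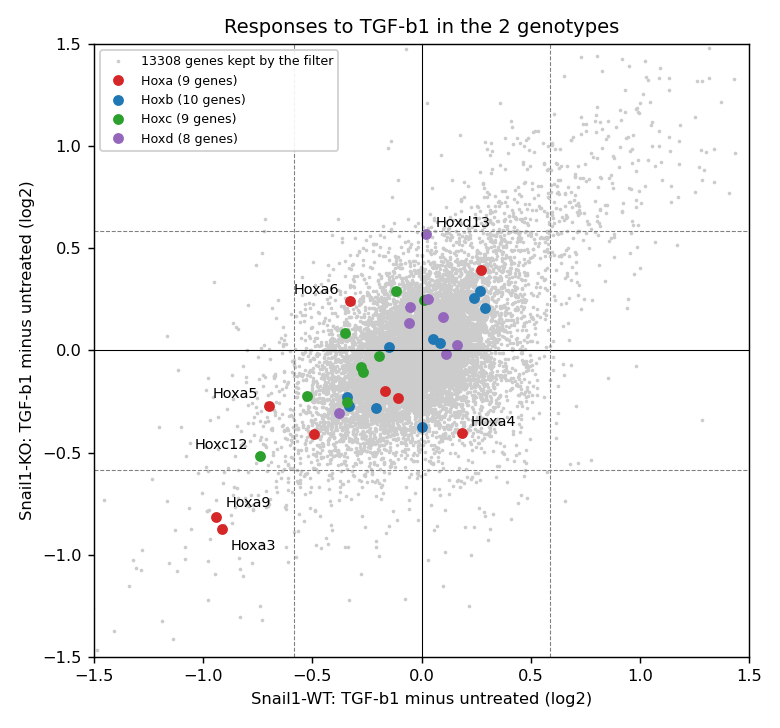
Response to TGF-b1 in Snail1-WT cells (horizontal axis, log2 difference) against that in Snail1-KO cells (vertical axis, log2 difference). Grey points are the 13308 genes kept by the filter, of which 62 lie outside the axes, coloured points are Hox genes by cluster, and dashed lines mark 1.5-fold. Hoxa3 and Hoxa9 lie apart from the other Hox genes at the lower left, and Hoxa4 and Hoxa6 lie on opposite sides of the diagonal.

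By any amount, 23 of 36 members were lower after TGF-b1 in Snail1-WT cells (54.8% of the kept and 51.2% of all genes) and 19 in Snail1-KO cells (53.8% and 53.5%). They were spread unevenly over the clusters. In the Hoxa cluster 7 of 9 genes had differences below 0 in Snail1-WT cells and 7 of 9 in Snail1-KO cells, 6 of them in both, with medians of -0.33 and -0.27. Hoxa10, a uterine and limb patterning gene, measured 6.01 and 5.51 in Snail1-WT cells and 5.90 and 5.49 in Snail1-KO cells. Its differences of -0.49 and -0.41 stood beside a noise SD of 0.20. Hoxa13, at the 5′ end of the cluster and needed for the autopod, was higher by 0.27 and 0.39, with a noise SD of 0.22.

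Within the Hoxa cluster neighbouring genes did not have 1 common difference. Hoxa4 lies between Hoxa3 and Hoxa5 and had differences of 0.18 for Snail1-WT and -0.40 for Snail1-KO cells. Hoxa6 and Hoxa7, between Hoxa5 and Hoxa9, had -0.33 and -0.11 for Snail1-WT and 0.24 and -0.23 for Snail1-KO cells. In RefSeq the gene model of Hoxa3 spans those of Hoxa4, Hoxa5 and Hoxa6, and 9 of the 36 members overlap another Hox model, so signal of such neighbours may be mixed where probes lie in shared sequence. Hoxa9 overlaps no other model. Another probe set is annotated to Hoxa3 and to 5730446D14Rik together and was not used for either. Its mean of 5.33 was above the 5.01 of the probe set used. Its differences were 0.07 and 0.24, so the direction of Hoxa3 is uncertain.

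In the Hoxc cluster 8 of 9 genes were below 0 in Snail1-WT cells, with a median of -0.28, and 6 of 9 in Snail1-KO cells, with a median of -0.08. The lower members in Snail1-WT cells after Hoxc12 were Hoxc10 at -0.52, Hoxc5 at -0.35 and Hoxc9 at -0.34. Hoxc10, a hind limb and lumbar factor, measured 8.11 and 7.59 in Snail1-WT cells and 8.39 and 8.16 in Snail1-KO cells. Its difference in Snail1-KO cells was -0.22, and its noise SD was 0.11. All 9 Hoxc genes had a higher value of the response in Snail1-KO than in Snail1-WT cells, by 0.09 (Hoxc9) to 0.44 (Hoxc5) with the deposited values, and all 9 were also above 0 with median centring and with cyclic loess. These 9 differences use the same 4 arrays and are not independent. By any amount 9 of 36 members were below 0, beside 46.4% of the kept and 50% of all genes, and with median centring 14 of 36 were. Past 1.5-fold, 1 of 36 was lower, Hoxa4 at -0.59 (1.97% of the kept and 4.05% of all genes), and 0 of 36 higher (1.61% and 3.2%).

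In the Hoxb cluster the signs varied from gene to gene. Hoxb1 and Hoxb2, which pattern the hindbrain, were higher by 0.29 and 0.24 in Snail1-WT cells and by 0.21 and 0.26 in Snail1-KO cells. Hoxb5, Hoxb6 and Hoxb7 had differences of -0.21, -0.34 and -0.33 in Snail1-WT cells and -0.28, -0.23 and -0.27 in Snail1-KO cells. Hoxb8 was higher, by 0.27 and 0.29. Hoxb3 had 0.08 and 0.04, Hoxb4 -0.15 and 0.02 and Hoxb9 0.05 and 0.06, and Hoxb13, below the filter, was level in Snail1-WT cells and had -0.38 in Snail1-KO cells. The noise SDs of the Hoxb genes that passed the filter were at most 0.22, and the cluster medians were 0.03 in both genotypes. In the Hoxd cluster, Hoxd8 had differences of -0.38 and -0.30 and Hoxd10 of 0.11 and -0.02, and the other 6 genes were below the filter. Of those, Hoxd1 had -0.05 and 0.21, Hoxd3 0.16 and 0.02, Hoxd9 0.03 and 0.25 and Hoxd11 0.10 and 0.16.

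Paralogs of the same number were alike for some numbers and not for others. In Snail1-WT cells all 3 members of number 5, all 3 of number 6 and both of number 7 were below 0, and in Snail1-KO cells 2, 2 and 2 were. Of number 7, Hoxa7 had differences of -0.11 and -0.23 and Hoxb7 of -0.33 and -0.27. Of the number 9 paralogs, Hoxa9 had differences of -0.94 and -0.82 and Hoxc9 of -0.34 and -0.25, whereas Hoxb9 had 0.05 and 0.06. Of number 3, Hoxa3 had -0.92 and -0.87 but Hoxb3 0.08 and 0.04. Of number 12, Hoxc12 had -0.74 and -0.52 but Hoxd12, below the filter, -0.06 and 0.13. Of number 10, Hoxa10 and Hoxc10 were lower in both responses, with Hoxd10 near 0. By stretches of the axis, the medians in Snail1-WT cells were 0.08 for numbers 1 to 3, -0.24 for numbers 4 to 8 and -0.06 for numbers 9 to 13. In Snail1-KO cells they were 0.04, -0.17 and -0.02.

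**Figure D3:**
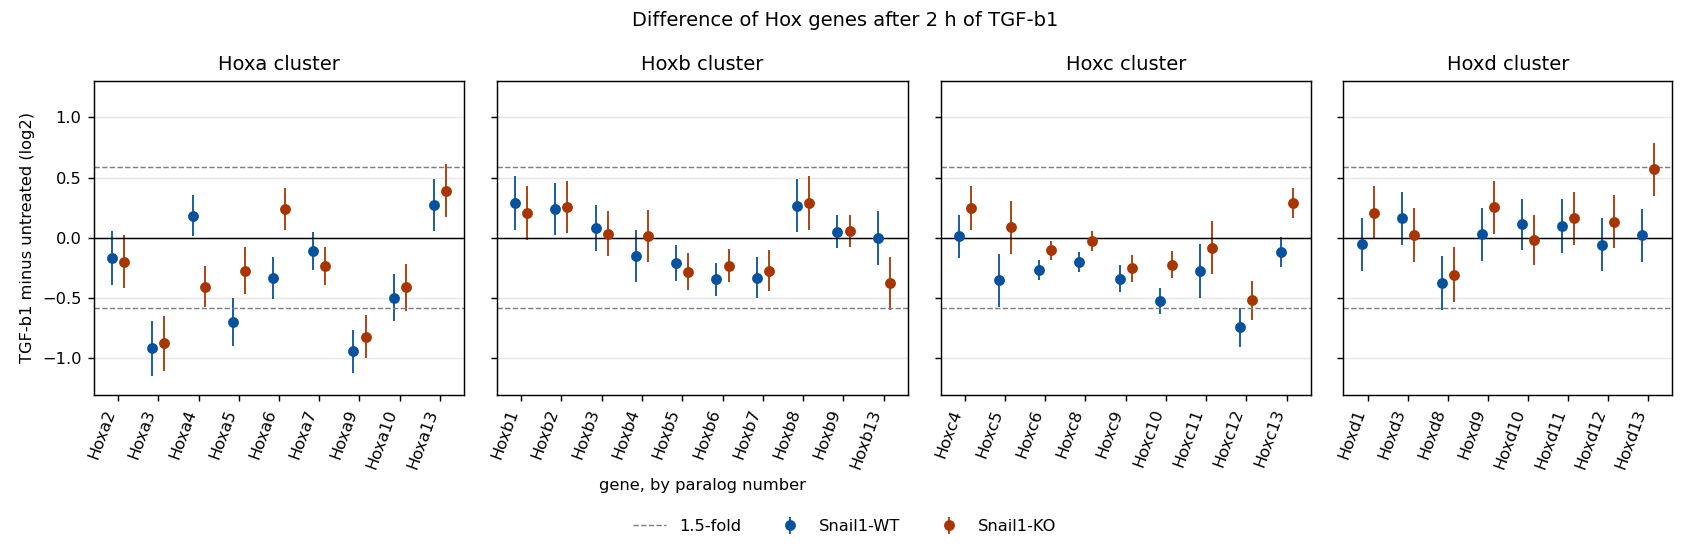
Difference after 2 h of TGF-b1 for each Hox gene, as a log2 difference on the vertical axis, in Snail1-WT (blue) and Snail1-KO (brown) cells, by cluster and paralog number. Bars are 1 noise SD to each side, from the 500 kept genes nearest in level and not from replicates, and dashed lines mark 1.5-fold. For genes below the filter the bars may be too short. Hoxa3 and Hoxa9 lie below the lower line in both genotypes, and Hoxa5 and Hoxc12 in Snail1-WT cells.

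Whether cells without Snail1 kept the same Hox levels was asked in the untreated and in the treated pair of arrays. No Hox gene was 1.5-fold apart in either pair. Of the kept genes 4.01% were that much higher and 3.13% lower in untreated Snail1-KO cells (3.48% and 2.65% of all genes), and 5.14% higher and 3% lower in treated ones (4.06% and 2.9%). The medians over the 36 members were -0.06 and 0.02. In 28 of 36 members the difference had the same sign in both pairs, which share no array, and 72.4% of the kept and 64.1% of all genes did so. The members below 0 were 22 untreated (50% of the kept and 49.3% of all genes) and 18 treated (50.4% and 52.5%). With 1 array per group, Snail1 and other differences between the cell populations cannot be told apart.

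The Hoxc cluster held the members nearest to the mark. Hoxc12 was lower in Snail1-KO cells by differences of -0.57 without and -0.34 with TGF-b1, and its untreated Snail1-WT value of 7.25 stood above the other arrays. Hoxc10 was higher in Snail1-KO cells by 0.27 and 0.57, and Hoxc6 by 0.37 and 0.53. Both Snail1-KO arrays lay above both Snail1-WT arrays for these last genes, and the noise SDs were 0.11 and 0.08. Hoxc5 had differences of 0.08 and 0.52, and Hoxc13 of -0.46 and -0.05. From Hoxc4 to Hoxc10 all 6 genes had differences above 0 in both pairs, down to 0.01 for Hoxc8 without TGF-b1. Hoxc11, Hoxc12 and Hoxc13 were below 0 in both, except that Hoxc11 with TGF-b1, at -0.02, was above 0 with cyclic loess.

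In the Hoxa cluster 3 genes had differences of opposite sign in the pairs. Hoxa4 had 0.11 without and -0.48 with TGF-b1, Hoxa5 had -0.03 and 0.40, and Hoxa6 had -0.16 and 0.41. Hoxa3 and Hoxa9, the members with the lowest responses in both genotypes, had -0.15 and -0.11, and -0.18 and -0.06, beside noise SDs of 0.23 and 0.18. Hoxa7 was higher in Snail1-KO cells by 0.30 and 0.18. Hoxb5, a gut and lung mesenchyme factor, had differences of 0.32 and 0.25 on its brighter probe set but -0.14 and -0.09 on its dimmer one, and 0.09 and 0.08 as the mean of both, so its direction is uncertain. Hoxb4 was higher by 0.15 and 0.32. Hoxb1, Hoxb2 and Hoxb8 were lower by differences of -0.17 and -0.25, -0.24 and -0.23, and -0.20 and -0.17. In the Hoxd cluster the differences ran from -0.34 to 0.18 without and from -0.29 to 0.40 with TGF-b1.

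**Figure D4:**
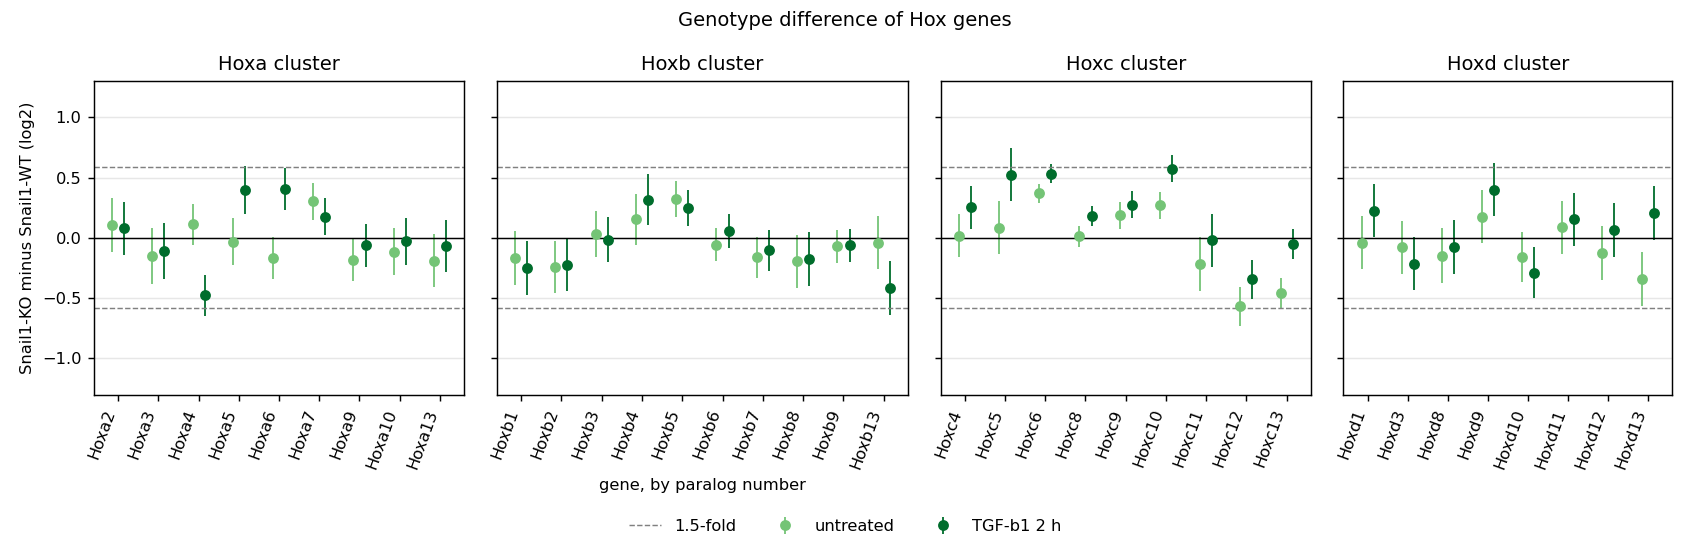
Snail1-KO minus Snail1-WT for each Hox gene, as a log2 difference on the vertical axis, in untreated cells (light green) and after 2 h of TGF-b1 (dark green), by cluster and paralog number. Bars are 1 noise SD to each side, not a spread of replicates, and dashed lines mark 1.5-fold. For genes below the filter the bars may be too short. No gene passes a line, and Hoxc4 to Hoxc10 lie above 0 while Hoxc11 to Hoxc13 lie below it.

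The genes beside the clusters gave a comparison by position. Of 18 measured flanking genes, each at most 3 protein-coding genes away from a cluster in RefSeq order, none was 1.5-fold apart in either response, and 15 passed the filter. Their median responses were -0.13 for Snail1-WT and -0.05 for Snail1-KO cells. Beside Hoxa, the adaptor gene Skap2 had -0.17 and 0.07, the sorting nexin gene Snx10 -0.43 and -0.37, the homeobox gene Evx1 -0.14 and 0.05, Hibadh -0.31 and -0.02 and Tax1bp1 0.11 and 0.08. Beside Hoxb, Skap1 had -0.30 and 0.10, Snx11 0.32 and 0.45, the heterochromatin gene Cbx1 -0.20 and -0.06, Ttll6 -0.10 and -0.41 and Calcoco2 0.04 and -0.18. Beside Hoxc, Calcoco1 had -0.23 and -0.15, the repair enzyme gene Smug1 -0.15 and -0.33, Cbx5 0.09 and 0.17 and Atp5g2 -0.07 and -0.04. Beside Hoxd, Evx2 had 0.03 and -0.25, Lnpk -0.01 and -0.06, Mtx2 -0.18 and -0.10 and Atp5g3 -0.12 and 0.03.

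By genotype, Calcoco1, a coactivator gene next to Hoxc, was the 1 flanking gene past the mark, in the treated pair, with differences of 0.54 untreated and 0.61 treated. In the untreated pair 0 of 18 passed it. Of the kept genes 4.01% were that much higher untreated and 5.14% treated. Calcoco1 measured 9.35 and 9.12 for Snail1-WT and 9.88 and 9.73 for Snail1-KO cells, so both Snail1-KO arrays were the high ones. The medians of the 18 were 0.12 and 0.18. Among the others, Smug1 beside Hoxc had 0.35 and 0.17, and beside Hoxa Tax1bp1 had 0.31 and 0.28, Snx10 0.20 and 0.26 and Hibadh 0.15 and 0.44.

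Of the 8 measured partner genes of the PBX, MEIS and PKNOX families, all passed the filter and none was 1.5-fold apart in a response to TGF-b1. The medians of their responses were 0.004 for Snail1-WT and -0.03 for Snail1-KO cells. Pknox2 was lower in Snail1-KO cells, with 7.40 and 7.72 for Snail1-WT and 6.40 and 6.57 for Snail1-KO cells, so the Snail1-KO arrays were the low ones, by differences of -1.001 (untreated) and -1.15 (treated). It was 1 of 8 past the mark in each pair, where 3.13% of the kept genes were that much lower untreated and 3% treated. The medians of the family were -0.18 and -0.26.

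Of 30 measured chromatin and upstream regulators of Hox genes, 26 passed the filter. After TGF-b1, 0 of 30 were 1.5-fold apart in Snail1-WT cells. In Snail1-KO cells 1 of 30 was higher, where 3.31% of the kept genes (2.97% of all) were. That gene was Kdm6b, which encodes a demethylase of the Polycomb mark, with differences of 0.42 and 0.66. By genotype, 1 of 30 was at least 1.5-fold higher and 2 were lower in each pair. Of all genes 3.48% were higher and 2.65% lower untreated, and 4.06% and 2.9% treated. The higher one was Ezh1, a Polycomb methyltransferase gene. It measured 7.87 and 7.34 for Snail1-WT and 8.63 and 8.14 for Snail1-KO cells, and was higher in the latter by 0.76 and 0.80. Gdf11, a TGF-b family ligand that sets the trunk-to-tail switch of Hox genes, was lower by differences of -0.64 and -0.71. Aldh1a2, which makes retinoic acid, had differences of -1.56 and -1.16 but failed the filter, and its Snail1-KO values of 3.48 and 3.53 lay below the lower quartile of either Snail1-KO array, which leaves the size uncertain. The Polycomb core genes Ezh2, Eed and Suz12 and the trithorax gene Kmt2a had no difference of 1.5-fold in any of the 4 comparisons.

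Among 3 measured long noncoding genes of the clusters, none was 1.5-fold apart in any of the 4 comparisons. Hoxaas3, transcribed across Hoxa5 and Hoxa6, measured 4.96 and 4.40 for Snail1-WT and 4.72 and 4.85 for Snail1-KO cells, differences of -0.56 and 0.14, which are 0.70 apart. Its low treated Snail1-WT array was also the lowest array of Hoxa5 and Hoxa6. Hotair, in the Hoxc cluster, had responses of -0.07 and -0.22.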

How the data were processed

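RNA of 4 samples was measured on Affymetrix arrays after biotin labelling with the WT PLUS kit, per the labels' protocols. Per the submitters' processing notes RMA and R 3.1.1 were used, and the authors deposited the resulting log2 values. RMA makes the value distributions of all arrays alike, which removes any shift common to most genes. The authors' genome build and annotation: not given in the sources used here. Depth does not apply to arrays, whose number limits the precision.

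The platform annotation gave 1 gene symbol for 23521 of 41345 probe sets and several for 1814, and 16010 were not named here. Each gene was represented by its probe set of highest mean among those of 1 symbol, and the upper 60% by mean were kept as background (13308 genes). All 36 members matched the RefSeq table of GRCm38.p6, which was used for gene order and overlaps, and promoter sequences are from RefSeq. Differences between arrays were counted at 1.5-fold. No test was run, as each group has 1 array. The noise SD is the scaled median absolute deviation of the difference of the responses over 500 genes of like level, divided by the square root of 2. The calculation was tested on simulated data with level-independent normal noise, which real arrays need not follow. The rule for names took any member, Snai1, all flanking genes and, per other list, at most 8 genes that passed the filter and were 1.5-fold apart between 2 arrays. Outside it, Id1, Nt5e, Lepr, Ptprc, Vcam1, Prrx1, Aldh1a2, Ezh2, Eed, Suz12, Kmt2a, Hoxaas3 and Hotair were named for context after their values were seen. Members, lists, threshold and alternatives were chosen with earlier results of these data known. Alternatives were 2-fold, other filters, median centring, cyclic loess (limma 3.58.1 in R 4.3.3), the mean of probe sets and 200 genes for the noise. The scripts ran on matplotlib 3.10.9, numpy 2.4.6, pandas 2.3.3 and Python 3.11.15.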

Additional observations from a re-analysis of the deposited data

Results flagged for a closer look

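Hoxa4 was singled out because its responses had opposite signs in the 2 genotypes and differed by at least 1.5-fold. It measured 6.39 without and 6.58 with TGF-b1 in Snail1-WT cells, and 6.50 and 6.10 in Snail1-KO cells. The response of Snail1-KO cells minus that of Snail1-WT cells was -0.59, beside a noise SD of 0.24 for such a difference of differences, and 1.97% of the kept genes were that much lower. With 1 array per group the difference was not tested. It was -0.65 with median centring and -0.61 with cyclic loess. Hoxa6, with 0.57, and Hoxd13, with 0.55 and all values below the filter, differed the other way and stayed under the 1.5-fold mark as deposited.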

How the results depend on the processing

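Under median centring and cyclic loess, 4 members were lower with Snail1 present and 2 without it, as with the deposited values. No member was 1.5-fold apart by genotype. The mean of all probe sets of 1 symbol could change only Hoxb5, the 1 member with a second such probe set. Its equal counts are thus no check of the other members. Counted at 2-fold, 0 members were lower in either response or in the difference of the responses. With the filter set at the upper 40% of genes, which 15 members pass (28 at 60%), 2 were lower with Snail1 present and 1 without it, fewer because Hoxa3, Hoxa5 and others are not among them, and the median in Snail1-KO cells was -0.23. Over the 28 members that passed the filter, an alternative added after the data were seen, the medians of the responses were -0.20 and -0.15. With cyclic loess 1 member, Hoxd13 at 0.60, was 1.5-fold higher in the difference of the responses. With 200 in place of 500 genes the median noise SD was 0.21 in place of 0.20. No paired analysis was possible because each group has 1 array and the labels give no replicate numbers. Median centring and cyclic loess moved the median of the kept genes by under 0.1 in each comparison. Without replicates, values near the filter limit, as of the Hoxd genes and of Hoxa3 after TGF-b1, carry the least weight.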

Other observations

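The arrays also hold probe sets for hairpins of microRNAs that lie within the Hox clusters, and they were looked at after the other values were seen. Hairpin probe sets read precursors, and the mature microRNAs were not measured. Mir196a-2, between Hoxc9 and Hoxc10, measured 3.81 and 3.79 for Snail1-WT and 4.46 and 4.39 for Snail1-KO cells, 0.65 and 0.60 higher in the latter, but below 4.51 on every array. Mir196a-1, in the Hoxb cluster and a source of the same mature 5p sequence, had genotype differences of -0.16 and 0.13. Mir615, within Hoxc5, measured 4.998 to 5.23 over the arrays. Mir10b, in the Hoxd cluster, measured 1.96 to 2.46.

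Hoxb5 was the 1 member with a second probe set of its own. The dimmer probe set had responses of -0.12 and -0.08, against -0.21 and -0.28 for the brighter one, and genotype differences of -0.14 and -0.09, against 0.32 and 0.25, so the probe sets differ in sign by genotype.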
